A study of Mus musculus with 29 samples.

Results

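The genes described here encode chondroitin sulfate proteoglycans, tenascins and link proteins of the brain's extracellular matrix. They are the lecticans Acan, Bcan, Ncan and Vcan, the other brain proteoglycans Ptprz1 and Cspg5, the link proteins Hapln1 and Hapln4, and the tenascins Tnc and Tnr. These 10 genes were taken by symbol from the 25746 genes of the count tables, and all 10 were among the 17031 genes that passed the filter on low counts. RNA was sequenced from the cortex in 29 samples from mice aged 3 months, of both sexes, at 21 days after photothrombotic stroke, in which light closes vessels of the right sensorimotor cortex, or from non-stroked controls.

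The non-stroked groups were C57BL/6J wildtype (WT, n = 4), Rag2-/- (n = 3) and NSG (n = 4) mice, and the stroked groups WT (n = 4), Rag2-/- (n = 3) and NSG (n = 3) mice. In 2 further stroked WT groups, tacrolimus, a calcineurin inhibitor that suppresses T cells, was given by osmotic pump from day 0 (WT-Tacr acute, n = 3) or day 7 (WT-Tacr delayed, n = 5). Rag2-/- mice form no mature T or B cells. NSG mice carry scid and a deleted common cytokine receptor chain on the NOD background and also lack NK cells, so that strain background and immune defect cannot be told apart in them. Non-stroked tacrolimus-treated mice were not analysed here, so stroke and tacrolimus cannot be told apart in either WT-Tacr group when it is set against non-stroked WT mice. The study's methods name contralesional tissue as the source of the control RNA, while its results call the controls naïve mice, and the labels do not settle which. Each sample was treated as a separate mouse, and is called one below, which the labels do not state. The study's methods give fewer animals for RNA sequencing than there are samples, in the NSG and tacrolimus groups as well, so some samples may share a mouse. P-values measure the spread between samples and would then be too small.

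Lecticans bind hyaluronan at one end and tenascins at the other, and link proteins lock the bond between lectican and hyaluronan. The resulting lattice fills the space between brain cells and condenses around many neurons, parvalbumin interneurons above all, as perineuronal nets. After brain injury reactive astrocytes and precursor cells deposit chondroitin sulfate proteoglycans around the lesion, where the sugar chains are known to hold back axon growth. RNA levels say nothing of the protein or of its sugar chains.

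Libraries held 17789044 to 43403413 counts. The sample titles carry 2 prefixes, Imm2 (20 samples) and TF (9 samples), called cohorts here. Neither the labels nor the study's text says what the prefixes stand for. All non-stroked, Rag2-/- and NSG samples were Imm2 and all WT-Tacr delayed samples TF, while the stroked WT group held 2 samples of each and the WT-Tacr acute group 1 Imm2 and 2 TF samples. The median depth was 37223696 counts in Imm2 and 23155303 in TF samples. Summed markers of cortical excitatory neurons (Tbr1, Cux2, Fezf2, Neurod6 and Slc17a7) were 1853 to 2094 CPM (read counts scaled to library size) in non-stroked WT mice, 1919.7 and 1755 in the Imm2 and 1159 and 1082 in the TF stroked WT mice, so the tissue was cortical by its markers, with less of them in the TF stroked mice. WT-Tacr acute samples 1 (Imm2) and 2 (TF) stood apart from the other stroked samples. Their fibroblast marker sums (Col1a1, Col1a2, Col3a1, Lum, Dcn and Pdgfrb) were 86.7 and 56.6 CPM and their microglia and macrophage sums (Aif1, Csf1r, Cx3cr1, P2ry12, Cd68, C1qa and Itgam) 284 and 266 CPM, against 59.2 to 73.7 and 211 to 248 CPM in non-stroked WT mice and at least 196 and 489.5 CPM in every stroked mouse of the other groups. Markers of thalamus, striatum and choroid plexus (Tcf7l2, Prkcd, Slc17a6, Drd1, Drd2, Ppp1r1b, Ttr, Folr1 and Kl) summed to 164 to 1988 CPM over the 29 samples, so the pieces differed in how much neighbouring tissue marker RNA they held, and the part of this in the results was not tested. In bulk tissue, fewer cells of a type and less RNA per cell cannot be told apart.

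In non-stroked WT cortex the 10 genes spanned a wide range of levels, compared as CPM per kb of merged exons. Bcan (brevican, a lectican made almost only in the nervous system) and Ncan (neurocan, the other brain lectican) led with 53.4 ± 2.41 and 51.1 ± 2.69 CPM per kb (SD, n = 4), and their ranges overlapped. Hapln4, a brain link protein, followed at 46.1 ± 2.55 CPM per kb, below Ncan in each of the 4 samples. Cspg5 (neuroglycan C, a membrane-spanning proteoglycan of neurons) lay at 31.0 and Tnr (tenascin-R, which ties lecticans together) at 29.7 CPM per kb, with overlapping ranges. Ptprz1, a receptor phosphatase whose shed form is phosphacan, was at 19.8 CPM per kb. The remaining 4 were far lower, with Hapln1, the link protein of cartilage and nets, at 4.87, Vcan (versican, a lectican of many tissues) at 1.76, Acan (aggrecan, the lectican of perineuronal nets) at 1.04 and Tnc (tenascin-C, a matrix protein of development and wounds) at 0.757 CPM per kb, without overlap between neighbours. In all 29 samples Ptprz1 stayed above Hapln1 and Hapln1 above Vcan. In stroked WT mice Hapln4 ranked behind Cspg5 by its mean, with overlapping ranges, and Tnc stood above Acan in 3 of 4 samples. Few counts lay behind the scarcest members, 120 to 337 per sample for Acan and 86 to 943 for Tnc, so their values carry the most counting error.

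**Figure D1:**
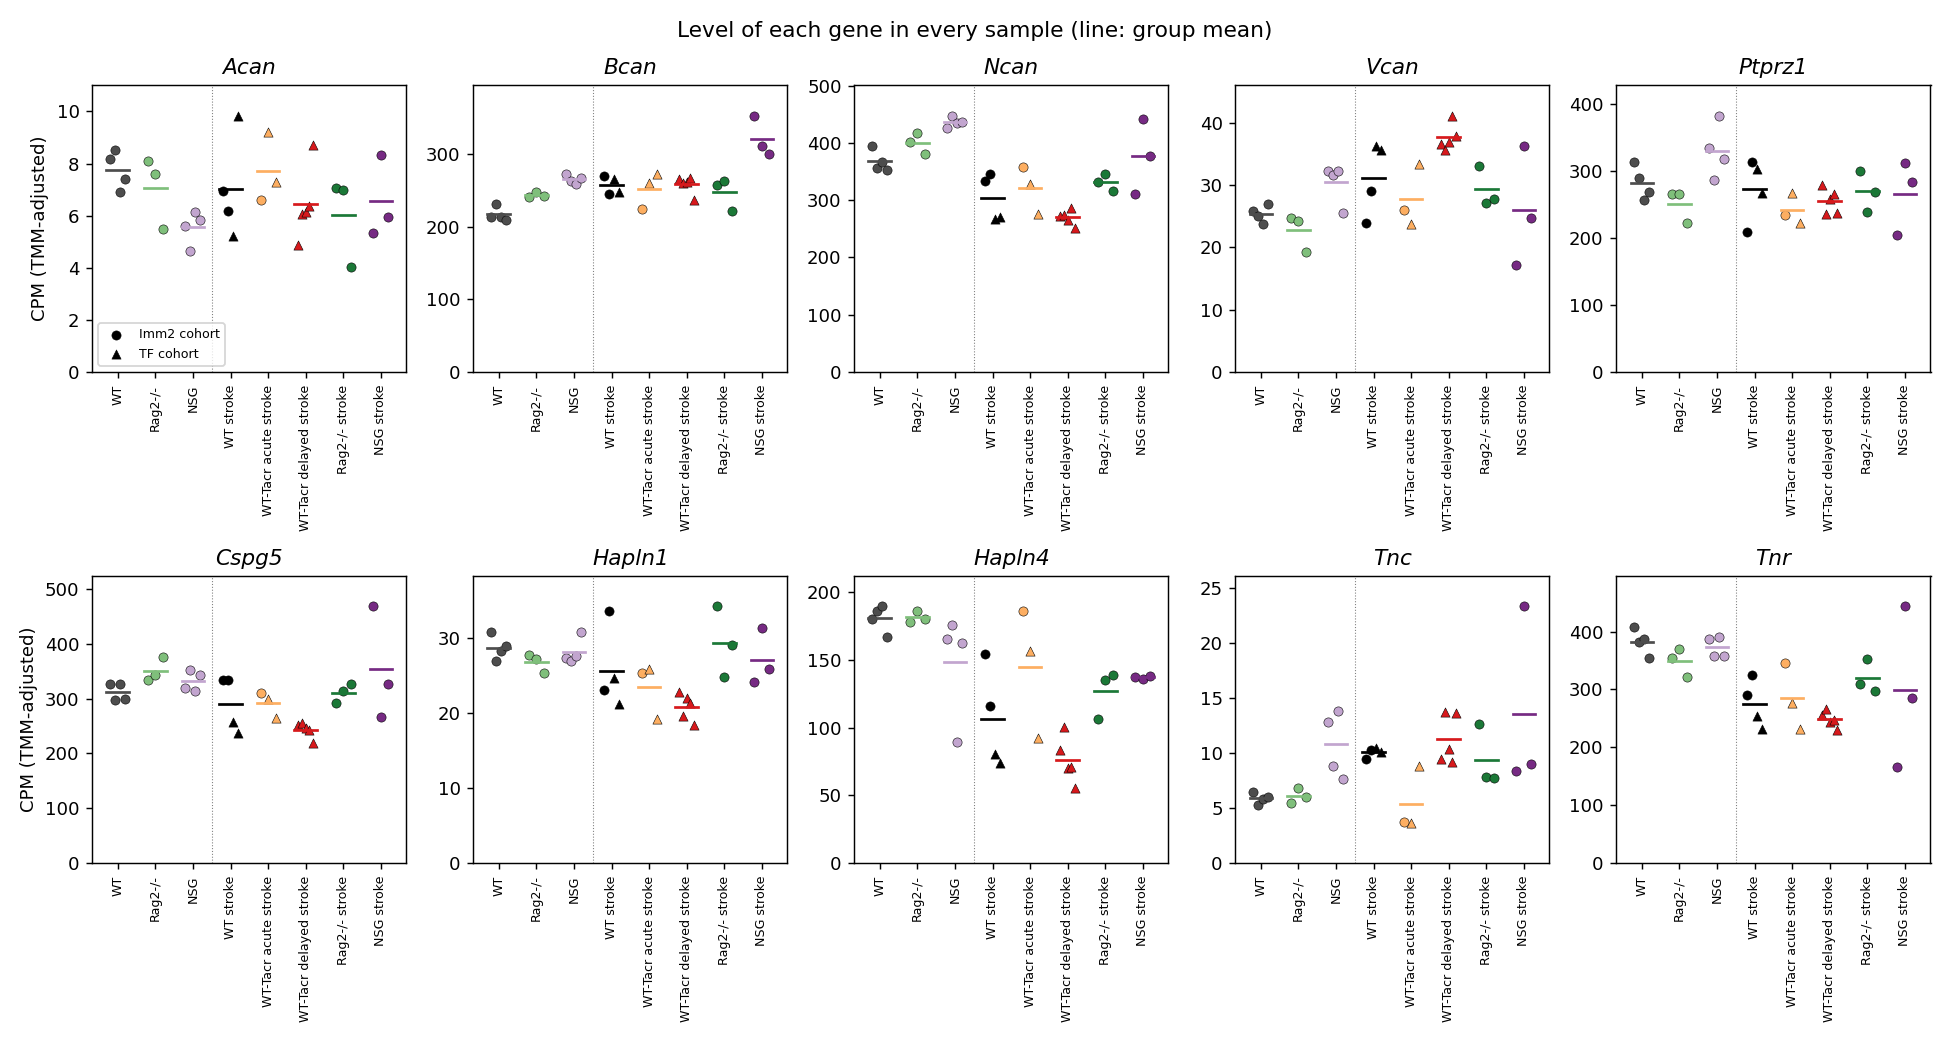
Level of each of the 10 genes in every sample. The vertical axis of each panel is CPM on TMM-adjusted library sizes and starts at 0, each point is 1 sample (circle, Imm2 cohort; triangle, TF cohort), the line is the group mean, and the dotted line separates the 3 non-stroked from the 5 stroked groups. Hapln4 lies between 74.0 and 154 CPM in stroked WT mice, below all 4 non-stroked WT mice, and there the TF triangles sit under the Imm2 circles.

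In the count tables the members carry the Ensembl IDs ENSMUSG00000030607 (Acan), ENSMUSG00000004892 (Bcan), ENSMUSG00000002341 (Ncan), ENSMUSG00000021614 (Vcan), ENSMUSG00000068748 (Ptprz1), ENSMUSG00000032482 (Cspg5), ENSMUSG00000021613 (Hapln1), ENSMUSG00000007594 (Hapln4), ENSMUSG00000028364 (Tnc) and ENSMUSG00000015829 (Tnr). Link protein genes lie next to lectican genes in the mouse genome. On GRCm38, Hapln4 (chr8:70083457-70090862, plus strand) ends 2222 bp from the end of Ncan (chr8:70093085-70120873, minus strand), and Hapln1 (chr13:89539796-89611652, plus strand) ends 43659 bp from the end of Vcan (chr13:89655312-89742509, minus strand). Acan (chr7:79053483-79115099, plus strand) ends 2 bp from Hapln3, and Bcan (chr3:87987531-88000230, minus strand) shares its strand with Hapln2, 21519 bp away. None of the 4 pairs has another gene of the tables between them (0 in each). The other members stand alone: Ptprz1 at chr6:22875502-23052916 (plus), Cspg5 at chr9:110243783-110262576 (plus), Tnc at chr4:63959785-64047015 (minus) and Tnr at chr1:159523769-159931729 (plus). Only Cspg5 and Tnr had another gene of the tables inside their bounds, and neither shared an exon base with it. Annotated genes outside the tables were not checked, and the annotation used for the counting is not given. Across the 29 samples the log2 CPM of Hapln4 and Ncan had a Pearson r of 0.75 and that of Hapln1 and Vcan one of -0.32, as a description of samples that share libraries and stroke state.

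Promoter sequence is shown for the members that rose or fell in WT mice and had a window in the RefSeq table (GRCm38.p6, matched by symbol), which held 8 of the 10 members. Cspg5 and Hapln4 are named only. Each run is the 220 bases from 250 to 31 bases before the RefSeq start, 5′ to 3′ on the strand of the gene, and capitals mark matches to a motif. Tnc (chr4:64047046-64047265) and Bcan (chr3:88000387-88000606) rose, Ncan (chr8:70120875-70121094) and Tnr (chr1:159523519-159523738) fell.
Tnc: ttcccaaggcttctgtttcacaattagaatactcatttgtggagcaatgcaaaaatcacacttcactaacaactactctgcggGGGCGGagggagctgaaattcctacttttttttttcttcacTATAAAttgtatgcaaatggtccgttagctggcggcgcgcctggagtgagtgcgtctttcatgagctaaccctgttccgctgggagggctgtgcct
Bcan: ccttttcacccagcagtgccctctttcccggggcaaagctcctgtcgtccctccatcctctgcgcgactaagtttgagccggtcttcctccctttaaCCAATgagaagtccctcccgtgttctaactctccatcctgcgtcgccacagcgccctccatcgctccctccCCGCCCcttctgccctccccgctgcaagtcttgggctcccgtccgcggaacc
Ncan: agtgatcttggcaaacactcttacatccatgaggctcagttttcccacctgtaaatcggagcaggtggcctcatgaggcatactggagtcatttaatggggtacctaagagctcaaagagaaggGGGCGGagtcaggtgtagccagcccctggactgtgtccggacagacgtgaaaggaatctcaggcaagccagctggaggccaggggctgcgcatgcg
Tnr: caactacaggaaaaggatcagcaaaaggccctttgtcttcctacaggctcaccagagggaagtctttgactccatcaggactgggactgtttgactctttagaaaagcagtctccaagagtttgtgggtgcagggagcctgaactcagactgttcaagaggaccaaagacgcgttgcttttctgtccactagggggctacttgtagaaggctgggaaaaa
The motifs searched on both strands were the TATA box TATAAA, the CCAAT box, the GC box GGGCGG, the AP-1 site TGANTCA, the STAT site TTCNNNGAA and the E-box CACGTG, which 9.95%, 31.0%, 28.5%, 6.12%, 6.27% and 5.01% of the 32851 windows of the table held. Tnc held a TATA box and a GC box, Bcan a CCAAT box and a GC box, Ncan a GC box and Tnr no match. None of the 4 windows held the AP-1, STAT or E-box letters. A match is a description of letters, not of a bound site.

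Bcan and Tnc rose and Hapln4, Tnr and Ncan fell after stroke in WT mice at 21 days. By edgeR's quasi-likelihood test with Benjamini-Hochberg adjustment over all 17031 genes, 2 of the 10 members were higher and 3 lower at an adjusted p below 0.05, where 15.2% of all genes were called higher and 11.6% lower (26.9% in all). All 5 changes were modest, and 0 members passed with an absolute log2 fold change above 1, as 7.3% of all genes did. The median log2 fold change was -0.12 over the 10 members and -0.00045 over all genes tested. In each of these 5 genes the stroked and non-stroked mice did not overlap, as was so for 16.3% of all genes in the higher and 13.4% in the lower direction.

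Among the lecticans, Bcan was 214, 231, 213 and 209.6 CPM in the non-stroked WT mice and 270.2, 246, 266 and 248 CPM in the stroked ones. Every stroked mouse was above every non-stroked one (log2 fold change 0.25, SE 0.0712, adjusted p = 0.0129 by edgeR), and the stroked mice of the 2 cohorts lay at the same height. Ncan went the other way, from 395, 356, 367 and 352 CPM to 333 and 345 CPM in the Imm2 and 267 and 271 CPM in the TF stroked mice (log2 fold change -0.27, SE 0.0965, adjusted p = 0.0365 by edgeR). The TF mice were the lower pair. Read per length, Bcan made up 49.8% ± 1.83 (SD, n = 4) of the summed lectican level in non-stroked WT mice and 58.4% ± 3.18 (SD, n = 4) after stroke, while Ncan went from 47.6% ± 1.85 to 38.8% ± 3.57 of it. Vcan, at 23.9 and 29.1 CPM in the Imm2 and 36.3 and 35.6 CPM in the TF stroked mice against 25.9, 25.0, 23.8 and 27.0 CPM, was not called (log2 fold change 0.29, 95% interval -0.034 to 0.62, adjusted p = 0.172 by edgeR). The TF pair lay above all non-stroked mice, while of the Imm2 pair 1 lay above them and 1 at the low end of their range. Acan gave a log2 fold change of -0.14 with an interval of -0.55 to 0.28, too wide at its count to bound a small change.

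Of the other 2 proteoglycans neither was called in WT mice. Ptprz1 had a log2 fold change of -0.047 (95% interval -0.31 to 0.21) and Cspg5 one of -0.10 (-0.36 to 0.15). For Cspg5 the 2 Imm2 stroked mice, at 334 and 334 CPM, lay above all 4 non-stroked mice, and the 2 TF mice, at 258 and 237 CPM, below all 4.

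Of the link proteins, Hapln4 was the member that fell most. It was 181, 186, 189.6 and 167 CPM in the non-stroked WT mice, 154 and 116 CPM in the Imm2 stroked mice and 80.3 and 74.0 CPM in the TF stroked mice. All stroked mice lay below all non-stroked ones, with the TF pair lowest (log2 fold change -0.77, SE 0.219, adjusted p = 0.0121 by edgeR). Hapln1 was not called, at 23.1, 33.6, 24.7 and 21.2 CPM after stroke against 30.8, 26.9, 28.3 and 28.9 CPM (log2 fold change -0.16, 95% interval -0.42 to 0.091).

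The tenascins parted. Tnc rose from 6.46, 5.25, 5.81 and 6.02 CPM to 9.44, 10.3, 10.4 and 10.1 CPM (log2 fold change 0.77, SE 0.286, adjusted p = 0.0464 by edgeR). The stroked mice of the 2 cohorts were alike in level, while all non-stroked mice were Imm2, so no change within TF could be measured. The Tnc call did not survive leaving out any 1 of the 8 WT samples (adjusted p 0.054 to 0.102 by edgeR), although the groups stayed apart. Tnr, made by oligodendrocytes and some neurons, fell from 408, 382, 387 and 354 CPM to 290.4 and 324 CPM in the Imm2 and 254 and 231 CPM in the TF mice (log2 fold change -0.48, SE 0.172, adjusted p = 0.0416 by edgeR). The TF mice were again the lower pair.

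**Figure D2:**
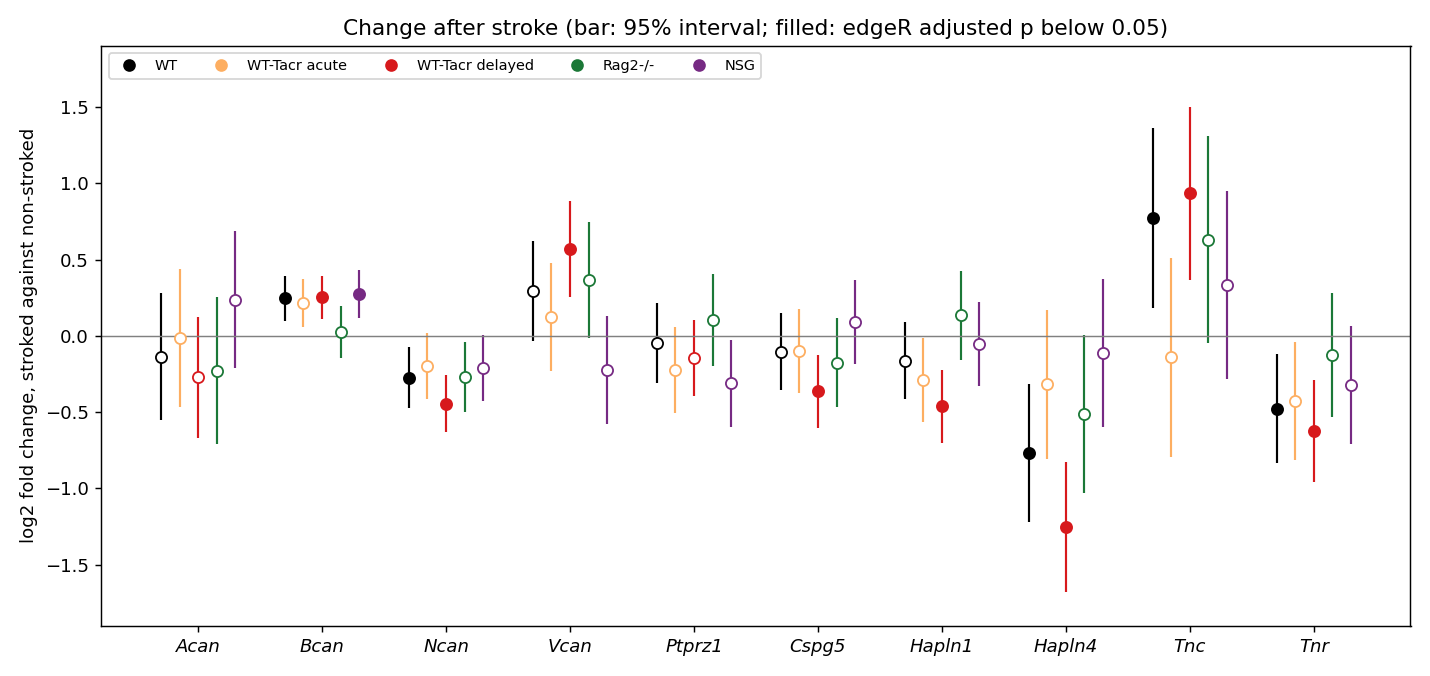
Change of each of the 10 genes after stroke in the 5 stroke comparisons. The vertical axis is the log2 fold change after stroke within each strain, with non-stroked WT as the base of both WT-Tacr groups, bars are 95% intervals of edgeR's quasi-likelihood fit, and filled points passed an adjusted p of 0.05. Filled points number 5 in WT, 8 in WT-Tacr delayed, 1 in NSG and 0 in WT-Tacr acute and Rag2-/- mice.

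The cohort moved with several of these values. In the fit with the cohort as a covariate, no member was called for stroke in WT mice (12.3% of all genes were), and none was called in the Imm2 cohort alone (8.72%), where 2 stroked mice stood against 4 non-stroked. Hapln4 went from -0.77 to -0.46 with the covariate and -0.42 in Imm2 alone (edgeR adjusted p = 0.137 and 0.209). Ncan went to -0.13 and -0.11 (adjusted p = 0.341 and 0.584), and Tnr to -0.30 and -0.31 (adjusted p = 0.305 and 0.459). Tnc and Bcan kept more of their size, Tnc at 0.62 and 0.75 (adjusted p = 0.208 and 0.189) and Bcan at 0.20 and 0.25 (adjusted p = 0.0812 and 0.0649). The cohort term itself, TF minus Imm2, was called for 27.6% of all genes (13.2% higher and 14.4% lower in TF) and for 2 members, both lower, Hapln4 (log2 difference -0.72, SE 0.195, adjusted p = 0.00822 by edgeR) and Ncan (-0.30, adjusted p = 0.0107). Bcan (0.095) and Ptprz1 (0.10) had the smallest cohort differences. The summed cortical excitatory neuron markers were lower in the TF than in the Imm2 stroked WT mice, as given above, and their part in these differences was not tested.

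**Figure D3:**
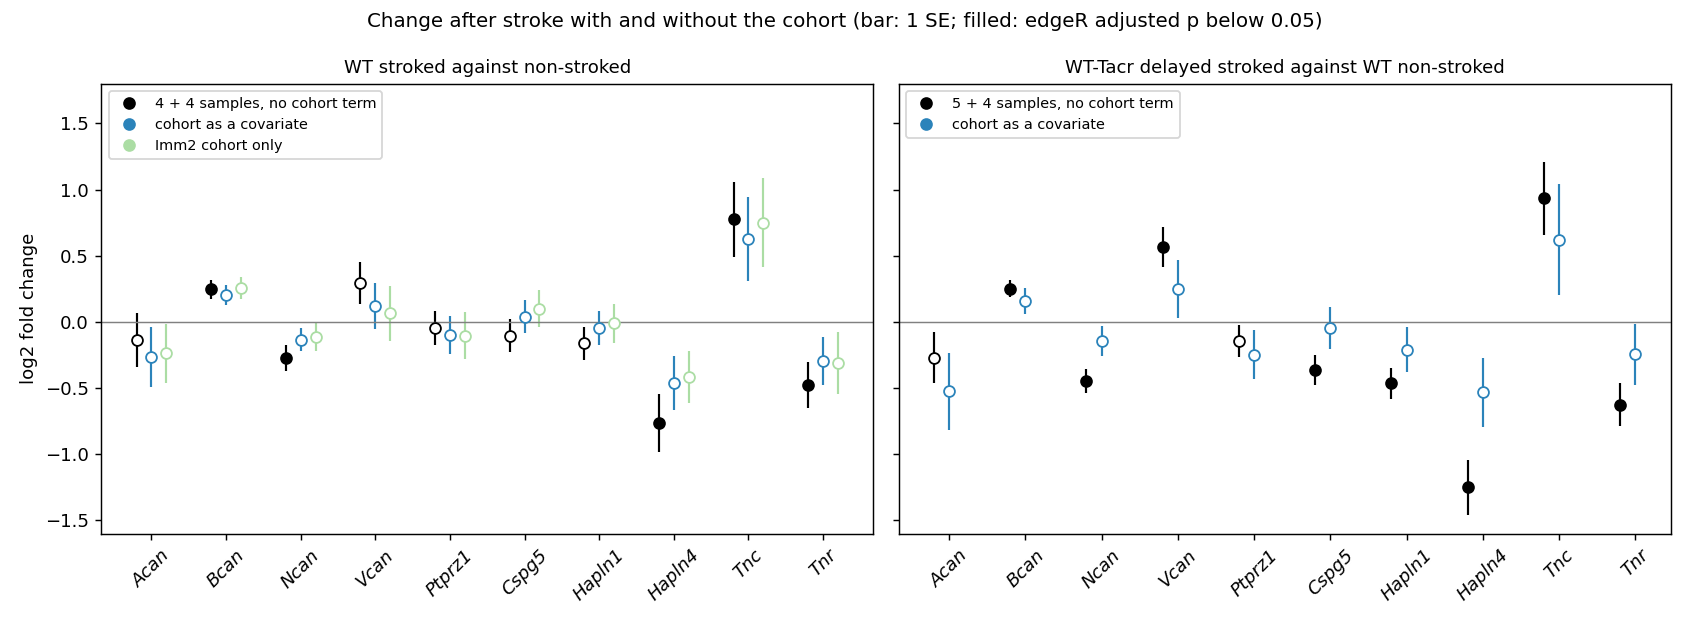
The cohort and the change after stroke, for stroked WT (left) and WT-Tacr delayed mice (right) against non-stroked WT mice. The vertical axis is the log2 fold change, bars are 1 SE, filled points passed an adjusted p of 0.05 by edgeR's quasi-likelihood test, and colours give the fit without a cohort term, with it and, on the left, in the Imm2 cohort alone. No point is filled once the cohort is in the fit, Hapln4, Ncan and Tnr move towards 0, and Tnc and Bcan move less in WT mice.

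Delayed tacrolimus was the condition with the most members called, 3 higher and 5 lower, but 55.2% of all genes were called in the same comparison, 27.6% in each direction. Bcan, Tnc and Vcan rose, and Hapln4, Tnr, Ncan, Cspg5 and Hapln1 fell. The comparison shares its non-stroked mice with that of WT mice. The median log2 fold change was -0.32 over the members and 0.0036 over all genes tested. Hapln4 was 83.1, 100.1, 70.2, 70.9 and 55.1 CPM in the 5 mice. All 5 lay below every non-stroked WT mouse, at 75.9 ± 16.8 (SD, n = 5) against 181 ± 9.99 (SD, n = 4) CPM (log2 fold change -1.25, SE 0.207, adjusted p = 2.79e-05 by edgeR). It was the 1 member past an absolute log2 fold change of 1, where 15.5% of all genes were. Vcan was 36.6, 35.7, 37.0, 41.1 and 37.9 CPM, above every non-stroked WT mouse (0.57, SE 0.153, edgeR adjusted p = 0.00309). Tnc was 9.41, 13.7, 10.3, 9.14 and 13.6 CPM (0.93, SE 0.276, edgeR adjusted p = 0.00615), again without overlap. The others called were Bcan (0.25), Cspg5 (-0.36), Hapln1 (-0.46), Ncan (-0.45) and Tnr (-0.63), with edgeR adjusted p from 0.000265 to 0.0106. All 8 called members were apart from the non-stroked mice, as were 26.5% of all genes in the higher and 27.4% in the lower direction.

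All WT-Tacr delayed mice were TF and all non-stroked mice Imm2. With the cohort as a covariate, which rests on the stroked WT and WT-Tacr acute mice of both cohorts, 0 members were called by edgeR (9% of all genes), Hapln4 at -0.53 (SE 0.260, adjusted p = 0.204) and Vcan at 0.25 (SE 0.217, adjusted p = 0.518). Set directly against stroked WT mice, delayed tacrolimus mice gave 0 called members by edgeR and DESeq2 (0% of all genes by edgeR). Cspg5, Hapln1 and Hapln4, 3 members, had an unadjusted p below 0.05 (20.3% of all genes), the largest difference being that of Hapln4 at -0.48 (95% interval -0.91 to -0.058, adjusted p = 0.207). In the TF stroked WT mice alone Hapln4 was 80.3 and 74.0 CPM, inside the range of the delayed mice.

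With acute tacrolimus no member was called after stroke by edgeR, where 8.54% of all genes were. Bcan, Hapln1 and Tnr, 3 members, had an unadjusted p below 0.05 (27.6% of all genes), and DESeq2 called 1, Bcan. The levels of Hapln1 and Tnr, 2 members, lay wholly below those of the non-stroked WT mice, as was so for 9.2% of all genes. The mice differed widely, and samples 1 and 2 were those whose fibroblast and microglia markers lay near the non-stroked level. Tnc was 3.70, 3.58 and 8.81 CPM in samples 1, 2 and 3, the first 2 below every other mouse of the series and the third within the range of other stroked groups. Hapln4 was 186, 157 and 92.1 CPM in the same order. Sample 1 lay within the non-stroked WT range, sample 2 under it and sample 3 between the Imm2 and TF stroked WT mice. Bcan, at 224, 260.2 and 272 CPM, was lowest in sample 1. Taken without samples 1 and 2, a choice made after seeing the data, sample 3 gave 2 members called (18.7% of all genes), Bcan at 0.34 (adjusted p = 0.0267) and Hapln1 at -0.57 (adjusted p = 0.0477 by edgeR). That lone sample was assumed to vary like the other groups. Leaving out sample 1 alone also gave 2 called members (21.2% of all genes).

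Against stroked WT mice, acute tacrolimus mice gave 0 called members by edgeR and DESeq2 (0% of all genes by edgeR). Tnc, the 1 member with an unadjusted p below 0.05 (12.7% of all genes), was lower in all 3 acute mice than in any stroked WT mouse (-0.92, SE 0.318, adjusted p = 0.311), as was so for 3.58% of all genes. It was called (1 member, 8.32% of all genes) only where sample 3 was left out. Delayed against acute mice, 1 member was called higher, Tnc (1.08, SE 0.309, edgeR adjusted p = 0.0188), and 1 lower, Hapln4 (-0.93, SE 0.222, edgeR adjusted p = 0.0108), where 20.3% of all genes were called. Tnc was the 1 member also past an absolute log2 fold change of 1 (5.75% of all genes). The ranges of Hapln4 overlapped through acute sample 3, and those of Tnc did not, as was so for 8.81% of all genes in the higher direction. With the cohort as a covariate 1 member was called, in the lower direction (9.29% of all genes), so that the Tnc call was lost. In a fit of the delayed and acute groups alone 0 members were called (0% of all genes). Without delayed sample 5 the Tnc call was lost as well (1 member called, 8.74% of all genes). With sample 3 as the acute group Tnc stood at 0.35 and Hapln4 at -0.28, neither called, and leaving out sample 1 or sample 2 also left 0 called. In each of these 3 fits 0% of all genes were called. Within the TF cohort, with 5 delayed and 2 acute mice, 0 members and 0% of all genes were called, Tnc at 0.88 and Hapln4 at -0.68 (adjusted p = 0.164 and 0.159 by edgeR).

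**Figure D4:**
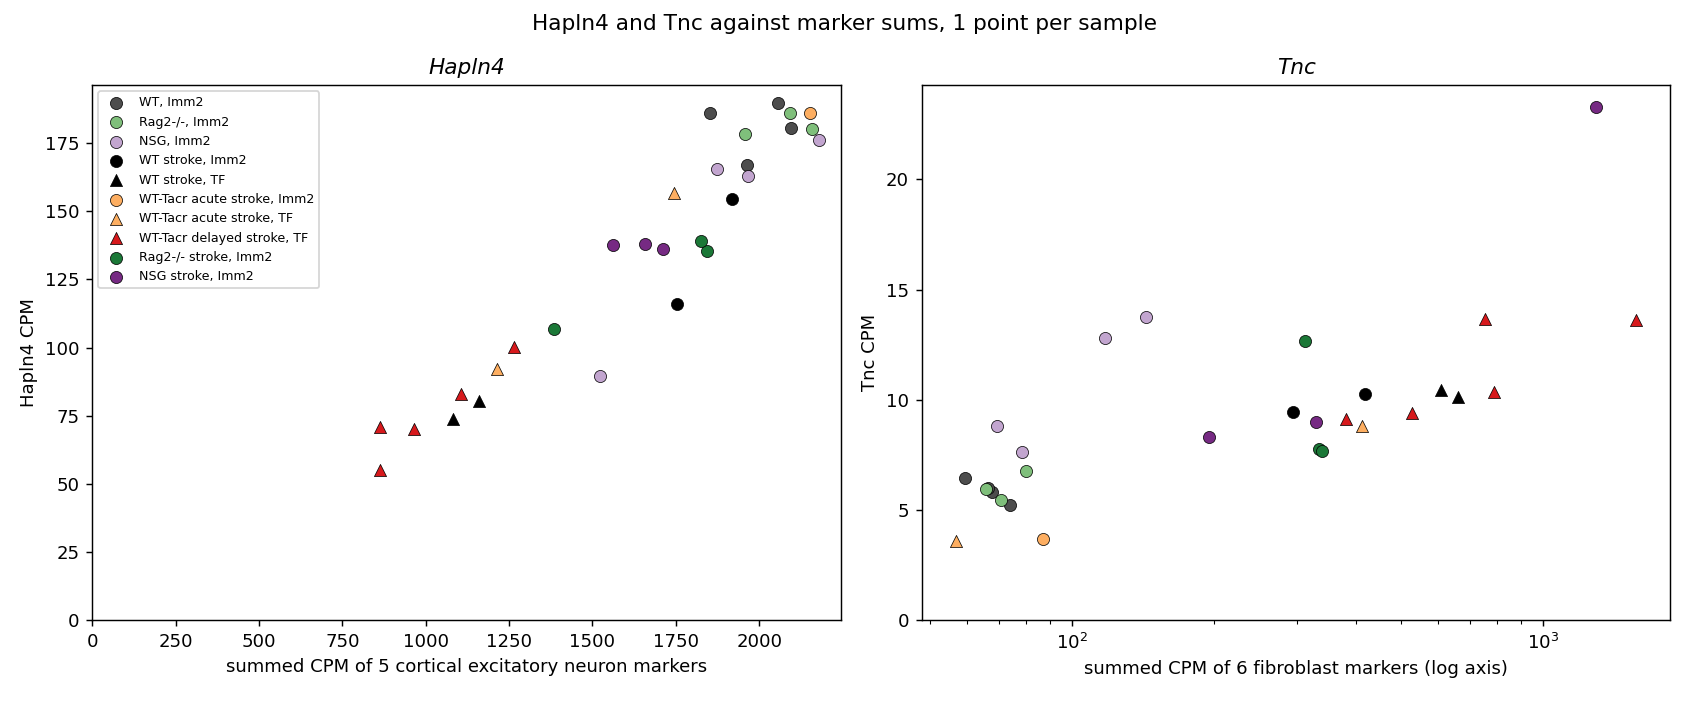
Hapln4 against the summed markers of cortical excitatory neurons (left) and Tnc against those of fibroblasts (right), each point 1 of the 29 samples. Axes are CPM, the horizontal axis on the right is logarithmic, colours give the groups and shapes the cohorts (circle, Imm2; triangle, TF). WT-Tacr acute samples 1 and 2 (orange) lie at the lower left for Tnc, and non-stroked NSG sample 3 is the lowest non-stroked point for Hapln4, at 89.4 CPM.

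Marker sums are set here beside the levels of both genes, and how closely they ran together was not measured. The lowest Hapln4 level of the series, in WT-Tacr delayed sample 5, came with the lowest sum of cortical excitatory neuron markers, which were 862 to 1264 CPM in the delayed mice against 1853 to 2094 CPM in non-stroked WT mice. Delayed sample 4 had nearly the same sum, 862.6 against 861.9 CPM, with Hapln4 at 70.9 CPM. Fibroblast markers were 294 to 659 CPM in stroked WT and 381 to 1579 CPM in WT-Tacr delayed mice, against 59.2 to 73.7 CPM in non-stroked WT mice. Within groups Tnc did not always follow them. Stroked NSG sample 2 was highest of its group in both. Stroked Rag2-/- sample 1 was highest of its group in Tnc (12.6 CPM) with the lowest fibroblast sum, 313 against 334 and 340 CPM. Fibroblasts can themselves make Tnc and Vcan, and astrocytes, precursor cells, oligodendrocytes and neurons each make some of the members, Tnc and Vcan included. Parvalbumin interneuron markers were 937 to 1007 CPM before and 735 to 1041 CPM after stroke in WT mice, and oligodendrocyte precursor markers 337 to 365 and 287 to 369.6 CPM. Of the 7 astrocyte markers 5 were called higher and 1 lower in stroked WT mice (median log2 fold change 0.39), with sums of 4963 to 5654 CPM before and 5487 to 7277 CPM after stroke, and of the 6 parvalbumin interneuron markers 2 were called lower (median -0.44). The part of each cell type in the changes of the members was not tested.

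In Rag2-/- mice no member was called after stroke by edgeR or DESeq2, where 8.23% of all genes were called by edgeR. Ncan was the 1 member with an unadjusted p below 0.05 (21.7% of all genes), at 402, 418 and 381 CPM in the 3 non-stroked and 332, 346 and 316 CPM in the 3 stroked mice, without overlap (log2 fold change -0.27, SE 0.111, edgeR adjusted p = 0.142). Hapln4, at 178, 186 and 179.9 against 107, 135 and 139 CPM (-0.51, 95% interval -1.03 to 0.0051), and Tnc, at 5.44, 6.78 and 5.94 against 12.6, 7.79 and 7.66 CPM (0.63, -0.050 to 1.31), did not overlap either. In all, 2 members lay apart in the higher and 3 in the lower direction, where 18.8% and 16.9% of all genes did. Bcan overlapped, at 240.5, 247 and 242 against 257, 263 and 222 CPM (0.025, -0.14 to 0.19). With the cohort in the fit 1 member was called (11.5% of all genes). In a fit of these 2 groups alone, which estimates the spread from 6 samples, 2 members were called (15.3% of all genes), Hapln4 (-0.51, adjusted p = 0.00999) and Ncan (-0.26, adjusted p = 0.0469 by edgeR). Stroked sample 1, with the highest Tnc and the lowest Hapln4 level of the 3, stood apart in its markers. Those of thalamus, striatum and choroid plexus summed to 1988 CPM in it against 281 and 164 CPM in samples 2 and 3, and those of mature oligodendrocytes to 9792 against 6363 and 6349 CPM. The part of this in the values was not tested. In the fit of all groups 0 members were called with that sample, and 0 without it (2.87% of all genes). The fit of these 2 groups alone was not repeated without it.

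In NSG mice Bcan alone was called after stroke, and in the higher direction, where 13% of all genes were called higher and 8.89% lower (21.9% in all). With an absolute log2 fold change above 1 as well, 0 members and 5.48% of all genes passed. Bcan was 272, 263, 259 and 267 CPM in the 4 non-stroked and 353, 311 and 300.2 CPM in the 3 stroked mice. The groups did not overlap, as was so for 13.6% of all genes in the higher direction, and sample 1 of the stroked mice was the highest of the series (log2 fold change 0.28, SE 0.0765, adjusted p = 0.0124 by edgeR). Without that sample Bcan stood at 0.19 and 0 members were called (adjusted p = 0.120, 10.9% of all genes called), as in a fit of these 2 groups alone (4.9%). Relative to the mean, the 3 stroked NSG mice were the most widely spread of the 8 groups for Ncan, Vcan, Ptprz1, Cspg5, Tnc and Tnr. Tnr was 165, 443 and 286 CPM, Cspg5 468, 265 and 327 CPM and Tnc 8.30, 23.3 and 8.996 CPM in samples 1, 2 and 3. Sample 2 was highest for Tnr and Tnc and lowest for Cspg5, and its fibroblast marker sum of 1297 CPM stood against 196 and 330.1 CPM in the others. Leaving it out gave 5 called members, 1 higher and 4 lower (23.8% of all genes), with Tnr at -0.73, Vcan at -0.55, Ptprz1 at -0.45 and Ncan at -0.35 (edgeR adjusted p 0.00440 to 0.0354). Tnc then changed sign without being called in either fit, from 0.33 to -0.32. Hapln4 was 138, 136 and 138 CPM in the stroked NSG mice, the least spread of the 8 groups relative to the mean, and overlapped the non-stroked mice at 165, 176, 89.4 and 163 CPM (-0.11, 95% interval -0.60 to 0.37).

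Whether the change after stroke itself differed from that of WT mice was tested as a difference of differences, and no member passed in Rag2-/- or NSG mice by edgeR or DESeq2. Of all genes 0% were called for Rag2-/- and 0.0294% for NSG mice by edgeR. At an unadjusted p below 0.05 there were 0 members for Rag2-/- (4.19% of all genes) and 1 for NSG mice (12.7%), Vcan (-0.52, SE 0.235, adjusted p = 0.363). For Bcan the interval was -0.45 to 0.0019 in Rag2-/- and -0.19 to 0.24 in NSG mice, so a smaller change in Rag2-/- than in WT mice was not shown. For Hapln4 the intervals were -0.43 to 0.94 and -0.0052 to 1.31, and for Tnc -1.04 to 0.75 and -1.30 to 0.42. For both genes the intervals held 0 and also a difference that would cancel the WT change.

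Without stroke, Bcan was the 1 member called between strains, higher in NSG than in WT mice, where 9.76% of all genes were called. With an absolute log2 fold change above 1 as well, 0 members and 3.36% of all genes passed. Bcan was 272, 263, 259 and 267 CPM in NSG, 240.5, 247 and 242 CPM in Rag2-/- and 214, 231, 213 and 209.6 CPM in WT mice. Every NSG mouse lay above every WT mouse (NSG against WT 0.29, SE 0.0712, adjusted p = 0.00796 by edgeR). The Rag2-/- mice lay between them, and Bcan was not called in them against either strain. The share of all genes ordered in this way was not counted. Tnc was 12.8, 8.81, 13.8 and 7.61 CPM in NSG mice, each above every WT mouse, and just missed the threshold (0.87, SE 0.286, adjusted p = 0.0534). DESeq2 called it as well, for 2 members in all, and a fit of these 2 groups alone called 4, Bcan and Tnc with Ncan higher (0.25) and Acan lower (-0.48) in NSG mice (15.8% of all genes). With the cohort in the fit 3 were called (12.9%). The 4 just named were the members that did not overlap, 3 higher and 1 lower, where 9.84% and 11.9% of all genes did not. Between Rag2-/- and WT mice 0 members were called by edgeR and DESeq2 (0.00587% of all genes by edgeR), with Bcan the 1 member at an unadjusted p below 0.05 (2.05% of all genes). NSG and Rag2-/- mice gave 0 called members by edgeR and DESeq2 (6.33% of all genes by edgeR) and 3 at an unadjusted p below 0.05 (18.2%), Ptprz1, Tnc and Vcan, each with a positive difference. A fit of these 2 groups alone called 2 (9.29%). Fibroblast markers in the non-stroked NSG mice were 69.5 to 144 CPM, and their samples 1 and 3, the highest in them, were also the highest in Tnc. Oligodendrocyte precursor markers summed to 401 to 455 CPM in NSG and 337 to 365 CPM in WT mice, without overlap, and 3 of the 7 were called higher in NSG mice. The part of both cell types in these differences was not tested.

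Of 9 further core and matrix proteins, 4 rose and 0 fell by edgeR, with a median log2 fold change of 0.54, where 15.2% of all genes rose. With delayed tacrolimus 5 of the 9 rose (27.6% of all genes), or 2 with the cohort in the fit (9% of all genes called in either direction). In Rag2-/- mice 5 rose (8.23% of all genes were called in either direction) and in NSG mice 4 (13% of all genes rose). With acute tacrolimus 0 were called by edgeR (8.54% of all genes), and 4 had an unadjusted p below 0.05 (27.6% of all genes). Dcn (decorin, a small leucine-rich proteoglycan of connective tissue, also in the fibroblast list) went from 9.70 ± 1.28 (SD, n = 4) to 77.2 ± 17.3 (SD, n = 4) CPM, a log2 fold change of 2.99 (SE 0.530, adjusted p = 0.000254). Fbln1, a fibulin that binds lecticans, rose by 1.76 (SE 0.379, adjusted p = 0.00153) and Bgn (biglycan) by 1.49 (SE 0.377, adjusted p = 0.00554). With the cohort as a covariate 3 of the 9 rose, these same 3 (12.3% of all genes called in either direction). Cd44, a hyaluronan receptor of immune cells and reactive glia, rose by 2.83 (SE 0.444, adjusted p = 8.69e-05) from 2.47 ± 0.481 (SD, n = 4) to 17.7 ± 3.95 (SD, n = 4) CPM and was the 1 of 10 genes of hyaluronan turnover and binding to pass, with or without the cohort in the fit. Of all genes 15.2% rose in WT mice, and 12.3% were called in either direction with the cohort in the fit. Of the same hyaluronan list 4 rose with delayed tacrolimus (27.6% of all genes), or 1 with the cohort in the fit (9% called in either direction). With acute tacrolimus 1 rose, in Rag2-/- mice 3 and in NSG mice 2. Of all genes 8.54%, 8.23% and 21.9% were called there in either direction, in the same order. Cd44 was also higher in non-stroked NSG than WT mice, at 8.54 ± 2.60 (SD, n = 4) CPM.

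Of the 20 genes of chondroitin sulfate synthesis and sulfation tested (Chst13, the 21st, was filtered out), 1 rose and 1 fell in stroked WT mice. With the cohort in the fit 0 rose and 2 fell. Of all genes 15.2% rose and 11.6% fell, and 12.3% were called with the cohort in the fit. Chsy3, a chondroitin polymerase, fell from 18.2 ± 0.678 (SD, n = 4) to 10.4 ± 1.56 (SD, n = 4) CPM, log2 fold change -0.81 (SE 0.124, adjusted p = 7.24e-05), and kept a value of -0.71 with the cohort in the fit. Dse, which turns chondroitin into dermatan sulfate, rose by 0.98 (SE 0.273, adjusted p = 0.0107), and by 0.58 without a call once the cohort was included. In Rag2-/- mice 0 rose and 2 fell (8.23% of all genes called), in NSG mice 3 and 3 (21.9%), and with acute tacrolimus 1 and 1 (8.54%). With delayed tacrolimus 6 rose and 7 fell, where 27.6% of all genes rose and 27.6% fell. With the cohort in the fit 0 rose and 1 fell there (9% of all genes called). Chsy3 was among those that fell in Rag2-/- (log2 fold change -0.64) and NSG mice (-0.52).

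Receptors and ligands of the members gave 2 higher and 2 lower of 14 in stroked WT mice, where 15.2% of all genes rose and 11.6% fell. Mdk (midkine, a growth factor bound by Ptprz1 and chondroitin sulfate) rose by 0.78 (SE 0.177, adjusted p = 0.00251), Itgb1, the integrin chain that pairs in tenascin receptors, by 0.40 (SE 0.137, adjusted p = 0.0333), and Cntn1 (contactin-1, a partner of Ptprz1 and Tnr) fell, with a log2 fold change of -0.35 (SE 0.0872, adjusted p = 0.00493). The fourth was Ptprs, a receptor phosphatase that binds chondroitin sulfate, at -0.30, the smallest of these 4. With the cohort in the fit Mdk and Cntn1 passed, and Itgb1 and Ptprs did not. Itgav, another integrin chain, was then called lower (-0.45), for 1 higher and 2 lower of the 14 (12.3% of all genes called). With delayed tacrolimus 3 of the 14 rose and 5 fell (55.2% of all genes called), or 1 and 2 with the cohort in the fit (9%). In NSG mice 2 rose and 3 fell (21.9%), and in Rag2-/- mice 2 rose and 0 fell (8.23%). With acute tacrolimus 0 were called by edgeR (8.54% of all genes), and 2 had an unadjusted p below 0.05 (27.6% of all genes). Of 7 proteases that cut lecticans, 0 rose and 1 fell in stroked WT mice (15.2% and 11.6% of all genes). The 1 that fell was Adamts8, at -0.66 (SE 0.191, adjusted p = 0.0130 by edgeR), which was not called with the cohort in the fit. The ADAMTS proteases best known for cutting brevican, Adamts4 and Adamts5, were not called in WT mice. Adamts4 was called in NSG mice and, in the lower direction, with acute tacrolimus. With delayed tacrolimus 3 of the 7 proteases rose and 2 fell (55.2% of all genes called), or 0 and 0 with the cohort in the fit (9%). In NSG mice 1 rose and 1 fell (21.9%), and with acute tacrolimus 0 and 1 (8.54%). In Rag2-/- mice 0 were called by edgeR (8.23% of all genes), and 1 had an unadjusted p below 0.05 (21.7% of all genes). Delayed against acute mice, 3 were called higher (20.3% of all genes in either direction).

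The genes whose log2 CPM ran most nearly parallel to each member over the 29 samples, other members left out, were as follows, and all share the libraries, strains and stroke states of these samples. Hapln4 was nearest to Rtn4r (r = 0.97) and Lrrc4 (r = 0.97), Ncan to Tmem8b (r = 0.96), Cspg5 to Stmn3 (r = 0.96) and Dohh (r = 0.96) and Tnr to Uprt (r = 0.96) and Itsn1 (r = 0.95). Tnc was nearest to Ifi203 (r = 0.90) and Ednra (r = 0.90), Vcan to Atp11a (r = 0.88) and Sulf1 (r = 0.88) and Bcan to Me1 (r = 0.86) and Edem2 (r = 0.86). Hapln1 was nearest to Ccdc47 (r = 0.87) and Eif3a (r = 0.87), Ptprz1 to Trak2 (r = 0.84) and Eps8 (r = 0.83) and Acan, the member with the fewest counts, only to Clmp (r = 0.65) and 1700001G17Rik (r = 0.65). Rtn4r encodes a receptor of myelin inhibitors and is itself on the list of receptors above. Among the members, the strongest pairs were Vcan with Cspg5 (r = -0.87) and Ncan with Tnr (r = 0.81).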

How the data were processed

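The deposited files hold raw read counts for every gene in each of the 29 samples, which the authors had made at a sequencing facility from stranded polyA libraries. Aligner, build, annotation and the use of strand are not given in the sources used here. Names, positions and exon lengths are from GENCODE M21 (GRCm38), which held 25635 of the 25746 gene IDs. Genotype, stroke and tacrolimus come from the sample labels, cohorts from the title prefixes, whose meaning is not given in the sources used here. Within each group, no 2 samples held identical or nearly identical counts. Samples of different groups were not compared in this way.

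Counts were fitted once for all 29 samples and 8 groups with edgeR 4.0.16 (R 4.3.3), using TMM normalization, filterByExpr by group and the quasi-likelihood test. P-values were Benjamini-Hochberg adjusted over the 17031 genes kept, with a call at 0.05. The SE is the absolute log2 fold change divided by the square root of F, and intervals are at 95%. CPM uses TMM-adjusted library sizes, and log2 CPM a prior count of 2. P-values measure the spread between samples. The scripts were tested on simulated data.

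The members and lists were chosen with earlier results of these data known. Named are all 10 members, from each further list the 3 called genes with the largest absolute change in stroked WT mice, and the 2 genes most parallel to each member. Ptprs, Itgav, Adamts4, Adamts5 and the genes neighbouring members were named outside this rule after their values were seen. A marker of cortical excitatory neurons, left out of their sum, and a gene parallel to Ncan are not reported here. Alternatives were RLE normalization, other filters, a fold minimum of 1 on the log2 scale, DESeq2 1.42.0, the cohort as a term, fits restricted to 1 cohort or to the groups compared, a replicate block, and leaving out each sample. Acute sample 3 alone, the cohort term and the cohort fits of the further lists were added after the data were seen.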

Additional observations from a re-analysis of the deposited data

Results flagged for a closer look

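In 40 pairs of a member and a group of 4 or 5 samples, 3 had a sample that stood far from its group by Dixon's test on log2 CPM, where chance gives about 1 in 20. Bcan was 236.56 CPM in WT-Tacr delayed sample 5, below the other 4 at 265, 261, 262 and 267 CPM. That sample also had the highest fibroblast marker sum of the group, 1579 CPM. Vcan was 25.5539 CPM in non-stroked NSG sample 4, against 32.3, 31.7 and 32.3 CPM in the others. Hapln4 was 89.4302 CPM in non-stroked NSG sample 3, against 165, 176 and 163 CPM. That sample had the lowest cortical excitatory neuron, neuron and mature oligodendrocyte marker sums of its group (1522, 4757 and 4270 CPM) and the highest Ptprz1 level (382 CPM). Whether tissue makeup accounts for any of the 3 values was not tested.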

How the results depend on the processing

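Of 940 values of single members under the alternative settings, 892 kept their side of the threshold, 32 lost a call and 16 gained one. Among the 892 were 40 uncalled values that changed sign, while 0 called values did. Of 1120 values with 1 sample left out, 1082 kept their side of the threshold, 27 lost and 11 gained a call. Among the 1082 were 55 uncalled values that changed sign. Members called in stroked WT mice (5) numbered 3 without a filter on low counts (18.9% of all genes) and with a mean of at least 1 CPM (29% of all genes), 4 in these groups only, and 0 with the cohort as a covariate, in the Imm2 cohort alone and with a fold minimum. For acute tacrolimus (0) they numbered 1 with a mean of at least 1 CPM and by DESeq2, and 2 with sample 3 alone. For delayed tacrolimus (8) they numbered 0 with the cohort as a covariate and 1 (Hapln4) with a fold minimum. For stroke in Rag2-/- mice (0) there were 1 with the covariate and 2 in the fit of these groups only. For stroke in NSG mice (1) there were 0 in the fit of these groups only and with a fold minimum. For non-stroked NSG against WT mice (1) there were 3 with the covariate, 4 in these groups only, 2 by DESeq2 and 0 with a fold minimum. NSG against Rag2-/- mice (0) gave 2 in these groups only. Delayed against acute tacrolimus (2) gave 3 by DESeq2, 1 with the covariate, 1 with a fold minimum, and 0 in these groups only, in the TF cohort and with acute sample 3 alone. A fold minimum can only remove calls, while fits of the groups compared alone gave more calls in some comparisons and fewer in others. The cause of these and of the other moves was not tested.

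With 1 sample left out, the members called ranged from 1 to 5 for stroke in WT mice (15.8% to 30.2% of all genes). There 1 was called without TF sample 3 or 4, where Bcan remained. With acute tacrolimus 0 to 2 were called (0.214% to 21.2% of all genes). With delayed tacrolimus 8 were called in each fit, as were 48.7% to 53.0% of all genes. In Rag2-/- mice 0 were called (2.87% to 7.5%) and in NSG mice 0 to 5 (10.9% to 27.5%). Members called ranged from 1 to 2 for NSG against WT without stroke (6.72% to 8.62% of all genes). For acute against WT stroked mice they ranged from 0 to 1 (0% to 8.32%). For delayed against acute mice they ranged from 0 to 4 (0% to 33.6%), with 4 without acute sample 3. They stayed at 0 in the other 5 comparisons, where at most 6.2% of all genes were called.

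Replicate numbers are shared among non-stroked strains, but same-numbered samples did not deviate together (residual r from -0.26 to 0.11). Residuals from the means of such small groups cannot tell whether same-numbered samples share more than a number. Among those samples a replicate block gave 0 called members for NSG against WT mice (5.41% of all genes), where the same samples without a block gave 1 (7.06%). For NSG against Rag2-/- mice it gave 1, Vcan (7.61%), and 0 without a block (8.88%), and for Rag2-/- against WT mice 0. Depth limits Acan and Tnc most.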
